A study of Homo sapiens with 4 samples.

Results

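The genes described here encode the SR proteins, the hnRNPs, the subunits of the SF3A and SF3B complexes and the U2AF heterodimer, the core set of factors that choose splice sites. They were taken from the table of read counts by gene symbol, as SRSF, HNRNP, SF3A, SF3B and U2AF names with 40 or more reads over the 4 libraries and without pseudogene names. This gave 43 genes of the 56638 symbols in the table: 11 SR protein genes, 20 hnRNP genes, 9 SF3 subunit genes and 3 U2AF genes. A further 30 symbols with pseudogene names were dropped, and SRSF12 and HNRNPCL1 were left out with 1 read and no read. HNRNPA2B1 has a symbol that the name patterns do not take in, and is given with the related genes further on. RNA came from MV4;11, an established acute myeloid leukaemia line known for its KMT2A-AFF1 fusion gene and its FLT3 tandem duplication. The 2 CU-T12-9 libraries are from cells kept for 24 h with CU-T12-9, a synthetic compound that activates the receptor TLR1/TLR2, at 1 µg/mL, and the 2 DMSO libraries from cells kept for 24 h with vehicle. All 4 are labelled as the parental line, with no genotype given, and the labels name the vehicle as DMSO in one place and as PBS in another, so an effect of DMSO itself cannot be told apart.

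Splicing removes introns from pre-mRNA. At the start of the process U2AF2 binds the polypyrimidine tract and U2AF1 the AG at the 3′ splice site, and the U2 snRNP, with SF3A and SF3B as its protein core, then settles on the branch point. SR proteins carry RNA recognition motifs and an arginine and serine-rich tail, and mostly promote the use of nearby exons, while many hnRNPs coat pre-mRNA and silence exons, so the balance of both families shapes alternative splicing. Many genes of both families limit their own output through alternative exons that send the transcript to nonsense-mediated decay. SF3B1, SRSF2 and U2AF1, as well as ZRSR2, are recurrently mutated in myeloid neoplasms. Gene-level counts do not show which isoform was made, and in bulk RNA fewer cells of a type and less RNA per cell cannot be told apart.

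The CU-T12-9 libraries held 23201117 and 23087102 reads and the DMSO libraries 25867733 and 23892934. Values below are CPM, a gene's reads scaled by the TMM-adjusted library size, so that 1 read stood for 0.0384 to 0.0442 CPM. All 10 markers expected in MV4;11 (CD33, FLT3 and SPI1 among them) were read in every library. All 10 were also called, 7 of them higher in CU-T12-9 (ITGAM 4.18-fold, CD4 3.37-fold and PTPRC 2.45-fold the most) and 3 lower (LYZ 1.57-fold, CD33 1.33-fold and FLT3 1.24-fold), and their part in the results below was not tested. Of the markers of other cell types the erythroid HBB and the epithelial EPCAM had no read. PECAM1 had no read either, and nothing is concluded from this about endothelial cells. CD3E, MS4A1 and COL1A1 had 1, 2 and 10 reads in all, and the epithelial KRT18 24 and 26 reads in CU-T12-9 and 62 and 61 in DMSO. The labels do not state whether a group's libraries come from different cultures, so p-values measure the spread between these libraries, which may be technical. A gene was called when its adjusted p in edgeR's quasi-likelihood test, with Benjamini-Hochberg adjustment over all 14018 genes tested, was under 0.05, and all adjusted p-values below come from that fit unless another is named. With this rule 65.2% of all genes tested were called, 32% higher and 33.2% lower in CU-T12-9. A fit without 1 library leaves 1 library in its group, so its p-values rest on the other group's spread alone. Without a CU-T12-9 library they hold no spread between CU-T12-9 libraries. Calls and counts from such fits below carry this limit, and so do the ranges of adjusted p that include them.

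In MV4;11 cells under CU-T12-9, 32 of the 43 splicing factor genes fell (74.4%) and 3 rose (6.98%), while 8 were not called. Without the first DMSO library 1 gene was called higher, without the second 0, and without the second CU-T12-9 library 5. The falls were modest. The median log2 fold change of the 43 genes was -0.43, against 0.00 over all genes tested, and the values ran from -1.01 for HNRNPR to 0.65 for U2AF1L4. By class, 7 of 11 SR protein genes, 16 of 20 hnRNP genes, 7 of 9 SF3 subunit genes and 2 of 3 U2AF genes fell. Both CU-T12-9 libraries lay below both DMSO libraries in 35 of the 43 genes, compared with 41.7% of all genes tested, and above both in 4, compared with 40.5%. When a fall of more than 1.5-fold was asked for, 7 genes passed (HNRNPR, HNRNPAB, HNRNPF, SRSF7, SRSF10, SRSF2 and U2AF2), or 16.3%, near the background of 12% of all genes tested. Without the first DMSO library 4 genes passed it. A rise of more than 1.5-fold was called by edgeR in 12.6% of all genes tested and in 0 of the 43, of which 0 passed at an unadjusted p under 0.05. Without the second CU-T12-9 library it was 1 of the 43. Neither DESeq2 nor limma-voom was run with a minimum fold. A fall of more than 1.2-fold was called in 25 of the 43 genes, or 58.1%, against a background of 23.8%, and a rise of more than 1.2-fold in 1, U2AF1L4, against a background of 22.9%. The 43 genes together took 1.22% and 1.19% of all reads in the CU-T12-9 libraries and 1.605% and 1.599% in the DMSO libraries. That share fell in both CU-T12-9 libraries and is free of any scaling between libraries beyond the total.

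**Figure D1:**
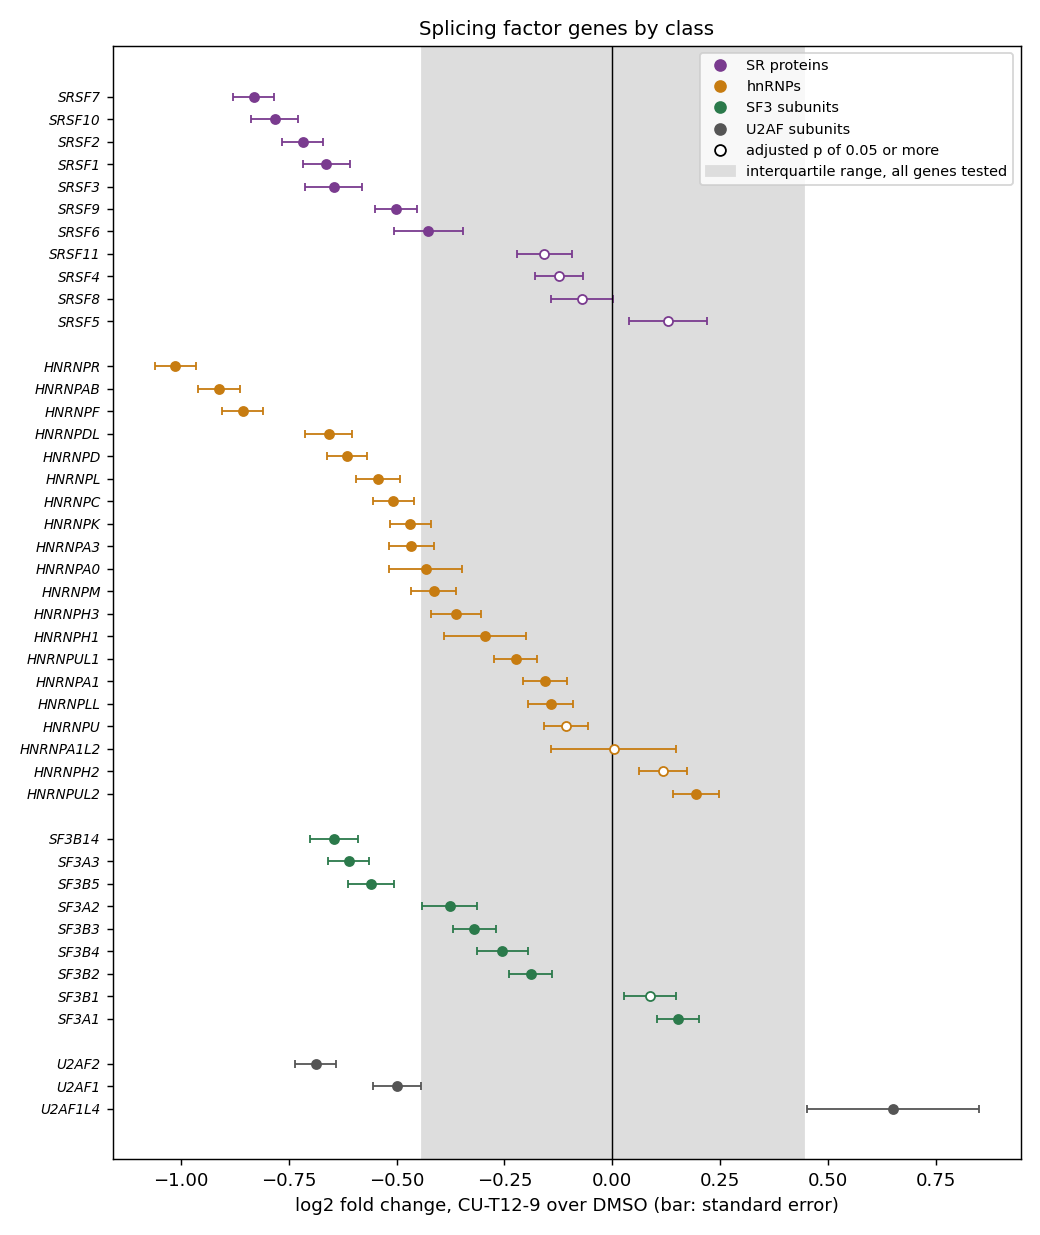
Fitted log2 fold change (CU-T12-9 over DMSO) of the 43 genes, with standard errors, by class. Filled points passed the adjusted p of 0.05, open points did not, and the grey band is the interquartile range of all genes tested (-0.44 to 0.45). Most points lie left of 0, the lowest at -1.01 (HNRNPR) and the highest at 0.65 (U2AF1L4).

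**Figure D2:**
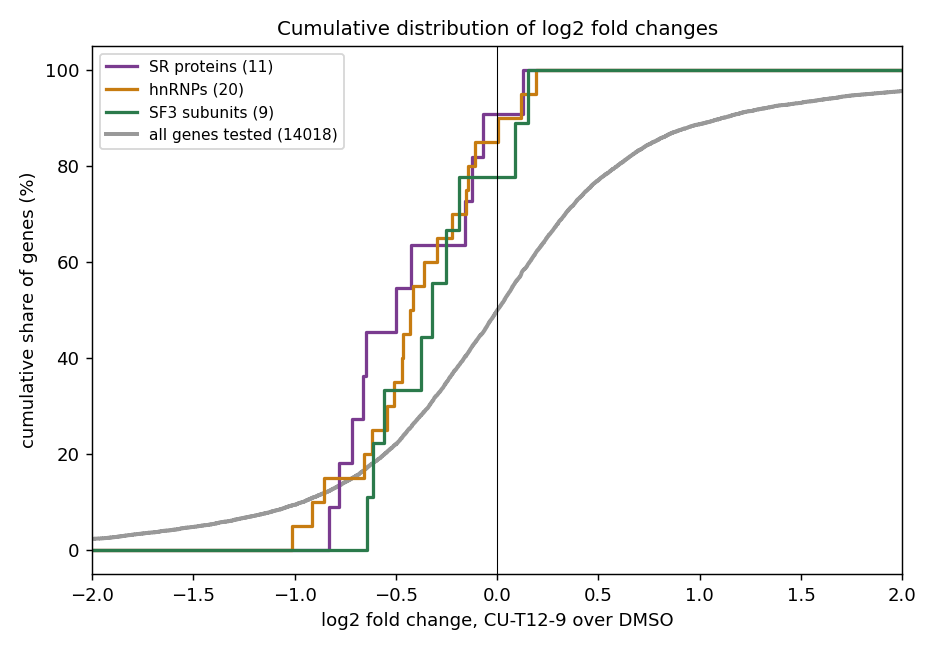
Cumulative share of genes (%) by log2 fold change for the SR protein, hnRNP and SF3 subunit genes and for all 14018 genes tested. The medians are -0.50, -0.42 and -0.32 for the 3 classes and 0.00 for all genes. The axis leaves out the tails of all genes tested, which reach from -8.59 to 10.96.

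Among the SR protein genes, those for the classical factors SRSF1, SRSF2, SRSF3, SRSF6, SRSF7 and SRSF9 and for SRSF10 fell, and those for SRSF4, SRSF5, SRSF8 and SRSF11 were not called. SRSF7, which carries a zinc knuckle beside its RNA recognition motif, had 186 and 188 CPM in CU-T12-9 and 338 and 329 CPM in DMSO (log2 fold change -0.83, SE 0.05, adjusted p = 5.55e-07). SRSF10, a splicing repressor when dephosphorylated, had 108 and 111 CPM in CU-T12-9 and 194 and 182 CPM in DMSO (-0.78, SE 0.05, adjusted p = 1.87e-06). In both genes the groups lay far apart beside the gap between libraries of a group. SRSF2, also known as SC35 and a mark of nuclear speckles, averaged 244 ± 1.48 CPM in CU-T12-9 and 401 ± 7.47 CPM in DMSO (SD, n = 2 in each group, as for all means below). SRSF1, the founding member of the family, averaged 262 ± 15.0 CPM in CU-T12-9 and 414 ± 8.88 CPM in DMSO, and its fold change was -0.66 on the log2 scale. SRSF3, the smallest of the family and active in mRNA export as well, had 319 and 366 CPM in CU-T12-9 and 541 and 530 CPM in DMSO. Its CU-T12-9 libraries differed more than its DMSO libraries, and the groups did not overlap. SRSF9 and SRSF6 fell 1.42-fold and 1.34-fold.

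The 4 SR protein genes that were not called behaved unlike each other across libraries. SRSF5 had 219 and 175 CPM in CU-T12-9 and 181 and 179 CPM in DMSO. The first CU-T12-9 library was above both DMSO libraries and the second below both, so the groups overlapped. The log2 fold change of SRSF5, 0.13, became -0.01 without the first CU-T12-9 library and 0.28 without the second. SRSF11, an SR-related protein, had 190 and 169 CPM in CU-T12-9 and 203 and 197 CPM in DMSO. It missed the threshold at an adjusted p of 0.0539. SRSF11 was called lower with no filter (adjusted p = 0.0217), with limma-voom (0.0496) and with the replicate block (0.0304). Its log2 fold change of -0.16 ran from -0.22, without the first CU-T12-9 library, to -0.08 over the alternatives. SRSF4 averaged 102 ± 4.93 CPM in CU-T12-9 and 111.6 ± 0.00932 CPM in DMSO (adjusted p = 0.075). Its log2 fold change of -0.12 became -0.14 without the first CU-T12-9 library. SRSF8, an intronless relative of SRSF2, averaged 38.9 ± 1.68 CPM in CU-T12-9 and 40.9 ± 2.60 CPM in DMSO, with overlapping groups, and its log2 fold change of -0.07 became 0.01 without the first CU-T12-9 library.

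Ratios of reads between relatives within a library need no scaling between libraries. The SRSF2/SRSF8 ratio was 6.44 and 6.11 in CU-T12-9 and 10.4 and 9.27 in DMSO, and the SRSF5/SRSF6 ratio 0.967 and 0.930 in CU-T12-9 and 0.635 and 0.659 in DMSO. Neither pair of groups overlapped, so SRSF2 fell relative to SRSF8, and SRSF6 relative to SRSF5, in both CU-T12-9 libraries. The SRSF4/SRSF6 ratio was likewise higher in CU-T12-9 (0.468 and 0.526, against 0.392 and 0.410 in DMSO). SRSF1/SRSF9 shifted less, at 1.496 and 1.58 in CU-T12-9 and 1.77 and 1.67 in DMSO, and SRSF3/SRSF7 was 1.71 and 1.94 in CU-T12-9 and 1.602 and 1.61 in DMSO. SR protein genes took 16.9% and 16.7% of the reads of the 43 genes in CU-T12-9 and 18.6% and 18.1% in DMSO. No test was made of these ratios, as an exact permutation test of 2 libraries against 2 cannot reach a p below 0.05, and a ratio of reads does not compare levels of genes of different length.

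**Figure D3:**
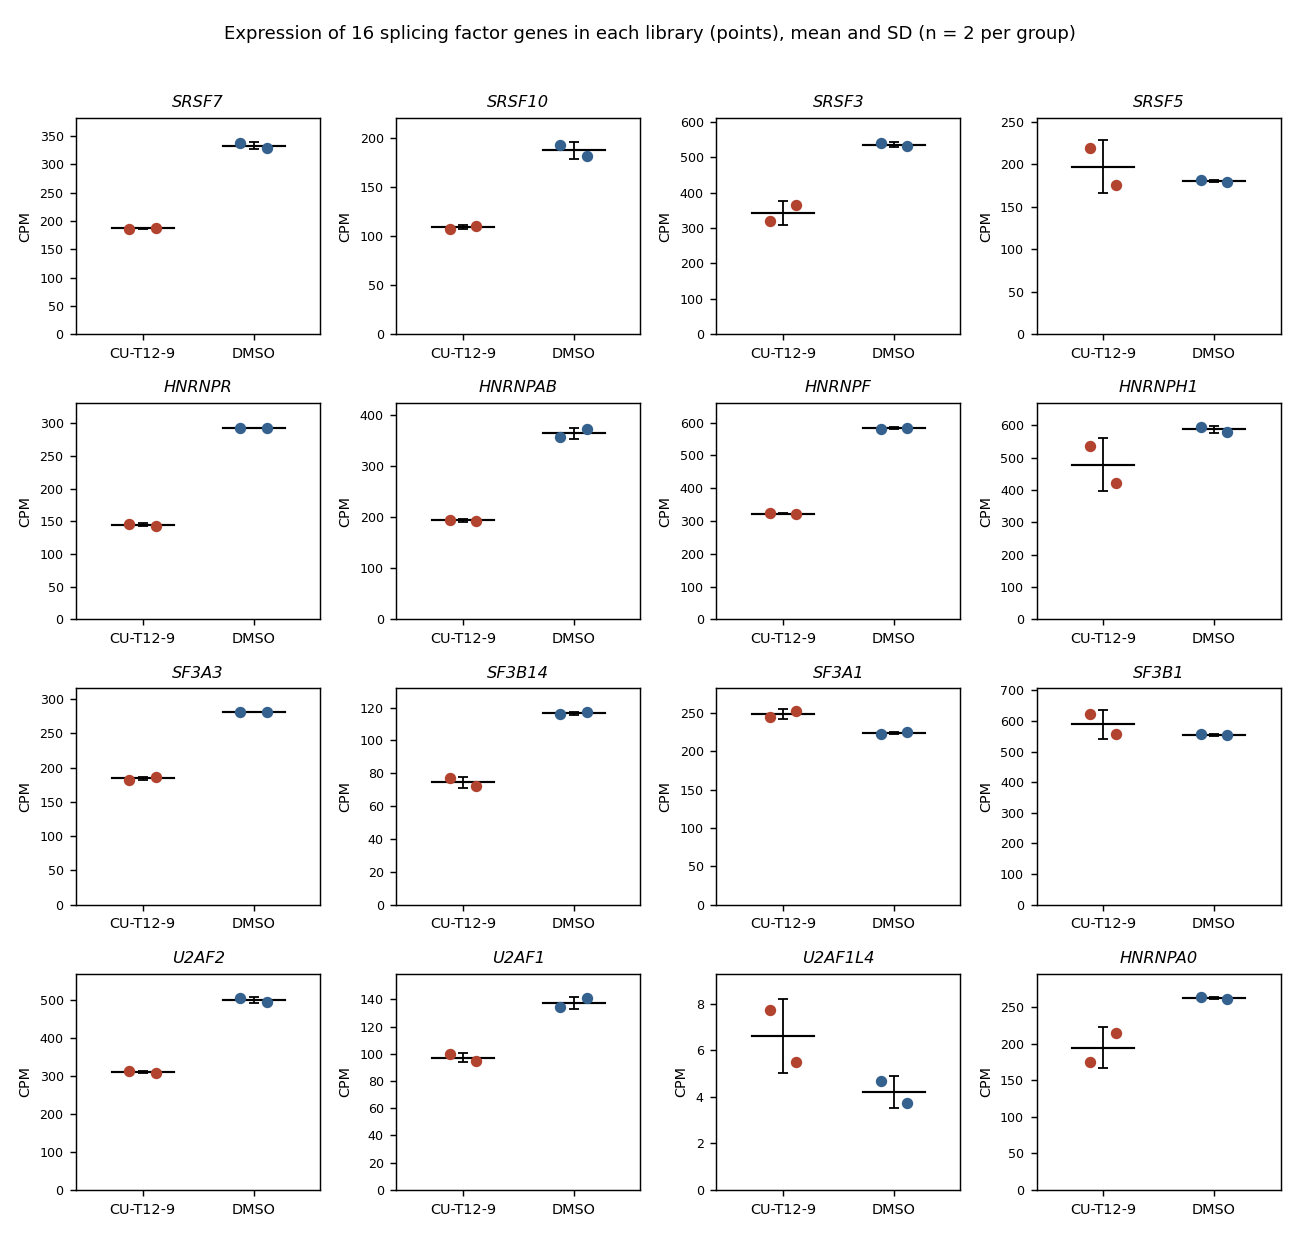
CPM in each library (points) of 16 of the genes, with the mean and SD of each group of 2 libraries as line and bar, and CU-T12-9 left of DMSO in each panel. SRSF7, HNRNPR, SF3A3 and U2AF2 show groups far apart, SRSF5 and SF3B1 groups that overlap, and SRSF5, HNRNPH1, HNRNPA0 and U2AF1L4 a gap between the CU-T12-9 libraries.

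The largest falls of all 43 genes were in hnRNP genes. HNRNPR, an RNA-binding protein related to SYNCRIP, had 146 and 143 CPM in CU-T12-9 and 293 and 292 CPM in DMSO, a 2.02-fold fall (log2 fold change -1.01, SE 0.05, adjusted p = 1.55e-07). HNRNPAB, of the A/B type, had 195 and 192 CPM in CU-T12-9 and 356 and 371 CPM in DMSO. HNRNPF, which binds G-rich runs, had 323 and 321 CPM in CU-T12-9 and 582 and 585 CPM in DMSO. In all 3 genes the libraries of a group lay close together and the groups wide apart, and the falls of HNRNPAB and HNRNPF were 1.88-fold and 1.81-fold (adjusted p = 3.66e-07 and 3.7e-07 by edgeR). HNRNPD, known as AUF1 and a binder of AU-rich elements of unstable mRNAs, and its relative HNRNPDL fell 1.53-fold and 1.58-fold. HNRNPL, which binds CA-rich RNA, fell 1.46-fold, while its paralog HNRNPLL, known for silencing exons of CD45 in lymphocytes, averaged 81.5 ± 0.0363 CPM in CU-T12-9 and 90.0 ± 1.32 CPM in DMSO, a fall of 1.104-fold. That call for HNRNPLL was lost in 7 of 12 alternatives (adjusted p = 0.0369, and 0.00845 to 0.28 over them), both DMSO libraries left out in turn among them.

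HNRNPA1 and HNRNPK had the highest levels per length. Per kilobase of annotated exon the order of the 43 genes in both groups began with HNRNPA1 (253 CPM per kb in CU-T12-9 and 282 CPM per kb in DMSO) and HNRNPK (172 CPM per kb in CU-T12-9 and 238 CPM per kb in DMSO). HNRNPA1, the prototype exon silencer, had 1261 and 1320 CPM in CU-T12-9 and 1413 and 1464 CPM in DMSO (log2 fold change -0.16, SE 0.05, adjusted p = 0.0232). The groups did not overlap, but the call was lost with DESeq2 or RLE scaling (adjusted p = 0.0651 and 0.0655), without either DMSO library (0.0818 and 0.214) and without the first CU-T12-9 library (0.0515, with a log2 fold change of -0.09), in a range of 2.31e-05 to 0.214. HNRNPK, which binds C-rich RNA, averaged 881 ± 6.001 CPM in CU-T12-9 and 1218 ± 1.32 CPM in DMSO, and HNRNPC, a binder of U-tracts, 850 ± 17.7 CPM in CU-T12-9 and 1209 ± 7.80 CPM in DMSO. HNRNPA3 fell 1.38-fold, HNRNPM 1.33-fold and HNRNPA0 1.35-fold, the last with 175 and 214 CPM in CU-T12-9 and 264 and 261 CPM in DMSO. The log2 fold change of HNRNPA0, -0.43, was -0.26 without the first CU-T12-9 library and -0.59 without the second, and it was called in all 12 alternatives. The HNRNPA1/HNRNPA3 read ratio was 2.43 and 2.39 in CU-T12-9 and 1.90 and 2.00 in DMSO, so that the smaller fall of HNRNPA1 held within each library. Reads of HNRNPA1 could have been moved to or from its pseudogenes, whose 8 rows held 1.67% as many reads as HNRNPA1 itself. HNRNPA1L2, a near-identical retrocopy with 114 to 133 reads a library, is uncertain for that reason and was not called (5.13 ± 0.366 CPM in CU-T12-9 and 5.12 ± 0.0217 CPM in DMSO). Its fold change, 0.00 on the log2 scale, was below 0 in 5 alternatives.

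Relatives within the H/F and U groups came apart. HNRNPH1, like HNRNPF a binder of G-rich runs, had 536 and 422 CPM in CU-T12-9 and 595 and 580 CPM in DMSO (log2 fold change -0.29, SE 0.09, adjusted p = 0.0216). The call of HNRNPH1 held in all 12 alternatives, but its log2 fold change was -0.45 without the first CU-T12-9 library and -0.13 without the second. HNRNPH3 fell 1.29-fold. HNRNPH2, the X-linked paralog of HNRNPH1, had 96.7 and 103 CPM in CU-T12-9 and 92.4 and 91.8 CPM in DMSO, and was not called (adjusted p = 0.0884). Both CU-T12-9 libraries were above both DMSO libraries, and it was called higher with upper quartile scaling (adjusted p = 0.0396). Its log2 fold change of 0.12 became 0.20 without the first CU-T12-9 library. The HNRNPH1/HNRNPH2 ratio was 5.54 and 4.08 in CU-T12-9 and 6.44 and 6.32 in DMSO, lower in both CU-T12-9 libraries though unequally so. HNRNPU, a scaffold protein of nuclear RNA and chromatin, had 1004 and 1069 CPM in CU-T12-9 and 1127 and 1107 CPM in DMSO, and was not called (adjusted p = 0.0963). It was called lower with library totals only (adjusted p = 0.0293) and with no filter (0.0493). Its log2 fold change of -0.11 became -0.15 without the second CU-T12-9 library. HNRNPUL1 fell 1.17-fold, whereas HNRNPUL2 rose, with 84.5 and 83.8 CPM in CU-T12-9 and 72.7 and 74.5 CPM in DMSO (log2 fold change 0.19, SE 0.05, adjusted p = 0.0104). Without the first or the second DMSO library the rise of HNRNPUL2 was not called (0.196 and 0.107, in a range from 6.21e-05 to 0.196). The HNRNPUL1/HNRNPUL2 ratio was 5.795 and 6.13 in CU-T12-9 and 8.03 and 7.90 in DMSO. The HNRNPF/HNRNPH1 ratio was 0.603 and 0.760 in CU-T12-9 and 0.978 and 1.008 in DMSO. Outside these groups of relatives, HNRNPR/HNRNPU moved most among the hnRNP pairs, at 0.146 and 0.134 in CU-T12-9 and 0.260 and 0.264 in DMSO.

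The subunits of SF3A and SF3B, which sit together in the U2 snRNP, did not move as one. SF3A3 had 183 and 186 CPM in CU-T12-9 and 282 and 281 CPM in DMSO (log2 fold change -0.61, SE 0.05, adjusted p = 4.09e-06). SF3B14, the older symbol of SF3B6, had 76.8 and 72.1 CPM in CU-T12-9 and 116 and 117 CPM in DMSO (-0.65, SE 0.06, adjusted p = 8e-06). SF3B5, a small SF3B subunit, fell 1.47-fold, SF3A2 1.30-fold and SF3B3 1.25-fold. SF3B4 and SF3B2 fell 1.19-fold and 1.14-fold, and neither was called when the second DMSO library was left out (adjusted p = 0.0594 and 0.153, the highest of the alternatives, with 2.00e-08 and 2.08e-05 as the lowest).

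SF3B1 and SF3A1, a large subunit each of SF3B and SF3A, were not called lower. The 7 other SF3 genes, SF3B3 and SF3B2 among them, were called lower, as given above. SF3B1 had 624 and 557 CPM in CU-T12-9 and 557 and 553 CPM in DMSO, overlapping at the second CU-T12-9 library, and was not called (log2 fold change 0.09, SE 0.06, adjusted p = 0.23). Without that library its log2 fold change was 0.17. SF3A1 had 244 and 253 CPM in CU-T12-9 and 222 and 224 CPM in DMSO (0.15, SE 0.05, adjusted p = 0.021), a rise that was not called without the first or the second DMSO library (0.255 and 0.21, in a range from 2.09e-06 to 0.255). The SF3A1/SF3A3 read ratio was 1.34 and 1.36 in CU-T12-9 and 0.790 and 0.797 in DMSO. The SF3B1/SF3B14 ratio was 8.12 and 7.72 in CU-T12-9 and 4.81 and 4.72 in DMSO. SF3A1 thus held more reads relative to SF3A3, and SF3B1 relative to SF3B14, in both CU-T12-9 libraries. These pairs were chosen after their values were seen, and SF3A3 and SF3B14 had the largest falls of the SF3A and SF3B genes among the 43. SF3 genes took 15.2% and 14.9% of the reads of the 43 genes in CU-T12-9 and 12.86% and 13.1% in DMSO.

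**Figure D4:**
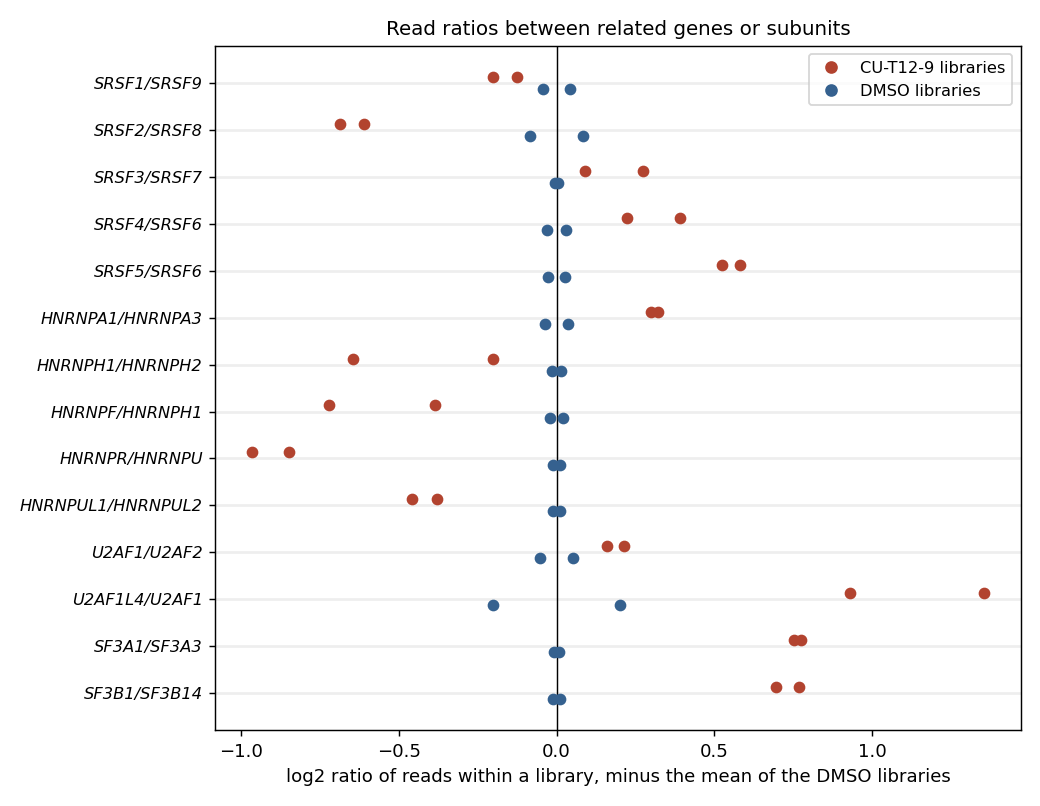
Log2 ratio of reads between 2 genes of the same class within each library, minus the mean of the DMSO libraries. Points are libraries, with CU-T12-9 above DMSO in each row. The groups do not overlap in any of the 14 pairs, with SF3A1/SF3A3 at 1.34 and 1.36 reads per read in CU-T12-9 and 0.790 and 0.797 in DMSO. Most single genes tested did not overlap either, with CU-T12-9 below in 41.7% and above in 40.5%. Some pairs share a gene, and SF3A1/SF3A3 and SF3B1/SF3B14 were chosen after their values were seen.

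U2AF2 and U2AF1 fell, and a paralog of U2AF1 with few reads rose. U2AF2 had 312 and 307 CPM in CU-T12-9 and 505 and 493 CPM in DMSO (log2 fold change -0.69, SE 0.05, adjusted p = 1.81e-06). U2AF1 had 99.7 and 94.8 CPM in CU-T12-9 and 134 and 141 CPM in DMSO (-0.50, SE 0.05, adjusted p = 4.17e-05). The groups were apart in both, and the U2AF1/U2AF2 ratio was 0.320 and 0.308 in CU-T12-9 and 0.266 and 0.285 in DMSO. U2AF1L4, which encodes a shorter protein similar to U2AF1, had 181 and 124 reads in CU-T12-9 and 122 and 89 reads in DMSO, or 7.74 and 5.48 CPM in CU-T12-9 and 4.68 and 3.72 CPM in DMSO. It had the largest rise of the 43 genes (1.57-fold, log2 fold change 0.65, SE 0.20, adjusted p = 0.0175), but the second CU-T12-9 library lay closer to the first DMSO library than to the first CU-T12-9 library. Without the first CU-T12-9 library its log2 fold change was 0.41. Without the second DMSO library the rise was not called (adjusted p = 0.0627, the highest of the alternatives, with 1.31e-07 as the lowest). In the GENCODE 29 annotation its exons share 332 bases with PSENEN on the other strand. Since the strand setting of the counting is not given, reads of the 2 genes cannot be told apart there. A further 9 of the 43 genes share exon bases with a neighbour that had 40 or more reads: SRSF2 with MFSD11, SRSF9 with GATC, HNRNPAB with PHYKPL, HNRNPH3 with RUFY2, HNRNPU with COX20, HNRNPUL1 with TGFB1, HNRNPUL2 with a readthrough transcript into BSCL2, SF3A1 with CCDC157 and SF3A2 with PLEKHJ1. Neighbours whose names were not among the counted symbols have unknown reads. Among these, AC015813.2 shares 1890 of the 3340 exon bases of SRSF1, AC008982.1 561 bases with HNRNPL and AD000671.2 713 with U2AF1L4. In all, 21 of the 43 genes share exon bases with any gene and 13 with a protein-coding gene, so the others named here are not the full set.

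Since most of these genes fell together, their promoters are shown for the SR, hnRNP, SF3 and U2AF gene with the largest fall and for SF3A1, which rose. Each is the 250 bases before the RefSeq start in GRCh38.p14, in lower case with CCAAT and CCGGAAG matches on either strand in capitals. CCAAT is the core of the NF-Y box and CCGGAAG that of ETS factor sites. SRSF7 has its window at chr2:38751495-38751744 on the minus strand, HNRNPR at chr1:23344285-23344534 on the minus strand, SF3B14 at chr2:24076327-24076576 on the minus strand, U2AF2 at chr19:55654785-55655034 on the plus strand and SF3A1 at chr22:30356895-30357144 on the minus strand.
SRSF7: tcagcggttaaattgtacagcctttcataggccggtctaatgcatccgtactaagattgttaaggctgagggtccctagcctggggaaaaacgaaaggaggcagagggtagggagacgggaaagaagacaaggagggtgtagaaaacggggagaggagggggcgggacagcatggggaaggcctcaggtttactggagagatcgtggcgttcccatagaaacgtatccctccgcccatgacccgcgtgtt
HNRNPR: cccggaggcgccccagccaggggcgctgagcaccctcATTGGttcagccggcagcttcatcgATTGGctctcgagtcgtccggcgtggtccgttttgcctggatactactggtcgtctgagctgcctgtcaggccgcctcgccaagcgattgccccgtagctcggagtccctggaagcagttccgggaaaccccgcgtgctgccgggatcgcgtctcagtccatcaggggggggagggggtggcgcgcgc
SF3B14: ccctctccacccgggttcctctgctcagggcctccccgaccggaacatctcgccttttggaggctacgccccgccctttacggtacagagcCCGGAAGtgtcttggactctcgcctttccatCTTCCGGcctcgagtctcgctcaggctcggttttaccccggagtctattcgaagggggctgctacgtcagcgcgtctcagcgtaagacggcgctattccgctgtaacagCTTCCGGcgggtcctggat
U2AF2: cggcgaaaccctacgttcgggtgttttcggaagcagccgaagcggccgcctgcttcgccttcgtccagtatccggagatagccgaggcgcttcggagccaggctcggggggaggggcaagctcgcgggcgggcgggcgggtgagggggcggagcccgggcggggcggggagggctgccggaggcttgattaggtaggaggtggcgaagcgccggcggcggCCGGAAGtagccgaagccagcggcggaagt
SF3A1: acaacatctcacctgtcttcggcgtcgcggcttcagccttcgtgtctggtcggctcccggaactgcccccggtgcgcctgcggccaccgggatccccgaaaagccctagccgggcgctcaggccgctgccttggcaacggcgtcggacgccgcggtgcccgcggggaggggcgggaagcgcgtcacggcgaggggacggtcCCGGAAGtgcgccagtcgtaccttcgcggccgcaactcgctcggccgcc

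SRSF7 has neither motif in this window. The capitals show 2 CCAAT matches before HNRNPR, 3 CCGGAAG matches before SF3B14 and 1 before each of U2AF2 and SF3A1. RefSeq promoter entries were found for 40 of the 43 genes (not for HNRNPA1, SF3B3 and SRSF2) and for 10067 of the tested genes. CCGGAAG stood in 12 of the 40 windows (30%), against 16.8% of the windows of all tested genes. Among these 12 were 6 of the 8 windows of SF3 genes, both of genes that fell (SF3B14, SF3A3, SF3A2, SF3B4 and SF3B2) and of SF3A1. The rest were those of HNRNPF, HNRNPD, HNRNPLL, SRSF4, SRSF5 and U2AF2. The 30% is thus not read as a trait of every class. CCAAT stood in 37.5% of the 40 windows and 35.3% of all. The E-box CACGTG, the site read by MYC with MAX, stood in 17.5% and in 9%, before HNRNPD, HNRNPDL, HNRNPA3, HNRNPM, HNRNPH3, HNRNPH2 and SF3B1. TATAAA stood in 12.5% and 5.27%, and the CRE palindrome TGACGTCA in 0% and 2.87%. All were searched on both strands, and they do not overlap each other in the windows shown. The median GC content was 65.2% in the 40 windows and 64.8% in all. These are letter matches, with no measure of binding here.

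Other genes of the splicing machinery were read from lists that had been written down by their known roles, without those of the 43 genes. Their counts stand against 33.2% lower and 32% higher among all genes tested, and nothing is read as particular to a list. Of 12 further hnRNP genes 7 fell (58.3%) and 3 rose (25%). HNRNPA2B1, a paralog of HNRNPA1 and among the most read of all, had 778 and 690.5 CPM in CU-T12-9 and 1302 and 1320 CPM in DMSO (log2 fold change -0.84, adjusted p = 3.09e-06), a larger fall than that of HNRNPA1. PTBP1, the polypyrimidine tract repressor, averaged 411.3 ± 12.4 CPM in CU-T12-9 and 654 ± 1.62 CPM in DMSO, and its neuronal paralog PTBP2 fell as well, at 6.86 ± 0.762 CPM in CU-T12-9 and 11.7 ± 0.0181 CPM in DMSO. PCBP3, a C-rich RNA binder, rose 2.48-fold, with 11.8 ± 0.309 CPM in CU-T12-9 and 4.76 ± 0.651 CPM in DMSO.

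Partners of SF3 and of the branch point mostly fell, 11 of 17 (64.7%), and 4 rose (23.5%). PHF5A, the SF3B subunit that holds the branch point pocket with SF3B1, averaged 36.4 ± 1.19 CPM in CU-T12-9 and 59.8 ± 2.54 CPM in DMSO, a fall of 1.64-fold. SF1, the branch point binding protein that U2 replaces, fell by 0.29 on the log2 scale, and DHX15, a helicase of spliceosome disassembly, by 0.83. ZRSR2, which reads the 3′ splice site of minor introns, rose to 10.6 ± 1.57 CPM in CU-T12-9, against 6.92 ± 0.154 CPM in DMSO (adjusted p = 0.00323).

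Proteins of the Sm core and of U1 fell in 12 of 16 cases (75%) and 1 rose (6.25%), and the list's median lay at -0.58 on the log2 scale. Left out in turn, either DMSO library gave 0 higher and the second CU-T12-9 library 2. SNRPB, which encodes the Sm proteins B and B′, fell 2.23-fold (113 ± 5.14 CPM in CU-T12-9 and 253 ± 3.32 CPM in DMSO). TIA1, which helps U1 to weak 5′ splice sites, rose by 0.15, a call lost in 6 of 12 alternatives, among them those in which either DMSO library was left out (adjusted p = 0.0387, and 2.25e-04 to 0.411 over them). Of 23 genes of the U4/U6.U5 tri-snRNP and LSM ring 16 fell (69.6%) and 2 rose (8.7%, or 1 gene without the first DMSO library), with PPIH, a cyclophilin of the tri-snRNP, at -1.23 and PRPF8, the large scaffold at the catalytic centre, at 0.29 on the log2 scale. PRPF8 had 1058 and 1059 CPM in CU-T12-9 and 854 and 875 CPM in DMSO, with groups well apart. In the NTC complex and the helicases of the catalytic steps, 8 of 23 fell (34.8%) and 6 rose (26.1%), close to the background shares, with SYF2 the largest rise (0.82) and the cyclophilin PPIL1 the largest fall (-1.07).

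Among SR-related and TRA2 proteins 8 of 20 fell and 4 rose (2 without the second DMSO library), or 40% lower and 20% higher, so that the share of falls was near that of all genes tested. TRA2B, which binds GAA-rich exonic enhancers beside the SR proteins, had 232 and 235 CPM in CU-T12-9 and 391 and 395 CPM in DMSO (log2 fold change -0.75, adjusted p = 9.53e-07). RNPS1, an SR-like partner of the exon junction complex, fell by 0.76, and CIR1, a nuclear corepressor with an SR-rich tail, rose by 0.44. Of 17 genes for kinases, phosphatases and importins of SR proteins and hnRNPs, 5 fell (29.4%) and 3 rose (17.6%), both shares below those of all genes tested, with a median log2 fold change of 0.03. Without the first DMSO library 3 fell, while 6 rose without the first CU-T12-9 library and 5 without the second. SRPK1, the mainly cytoplasmic kinase that readies SR proteins for import, averaged 93.1 ± 1.43 CPM in CU-T12-9 and 152 ± 0.215 CPM in DMSO (adjusted p = 2.24e-06). CLK4, a nuclear kinase of SR proteins, had 42.3 and 35.6 CPM in CU-T12-9 and 21.0 and 20.8 CPM in DMSO, a 1.86-fold rise (adjusted p = 2.80e-05). CLK1, of the same kinase family, had 80.6 and 65.2 CPM in CU-T12-9 and 69.2 and 66.3 CPM in DMSO. Its groups overlapped and it was not called (0.337). Without the second CU-T12-9 library the log2 fold change of CLK1 was 0.25, and without the first it was -0.03. TNPO2, an importin that carries hnRNP A1 among its cargo, fell by 0.72.

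In the exon junction complex and nonsense-mediated decay list 9 of 15 fell (60%) and 4 rose (26.7%). MAGOHB, a paralog of the exon junction core protein MAGOH, fell 2.30-fold, and SMG6, the endonuclease of nonsense-mediated decay, rose 1.81-fold (78.6 ± 0.996 CPM in CU-T12-9 and 43.5 ± 0.212 CPM in DMSO). Of 25 tested other regulators of alternative splicing 14 fell (56%) and 2 rose (8%). MBNL3, a muscleblind-like protein, fell by 0.93, and QKI, which binds ACUAA-type elements, rose by 0.59. RBM3, a cold-inducible protein, was not called (-0.12, adjusted p = 0.0537). It was called lower with library totals only (adjusted p = 0.0265) and with limma-voom (adjusted p = 0.0458).

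**Figure D5:**
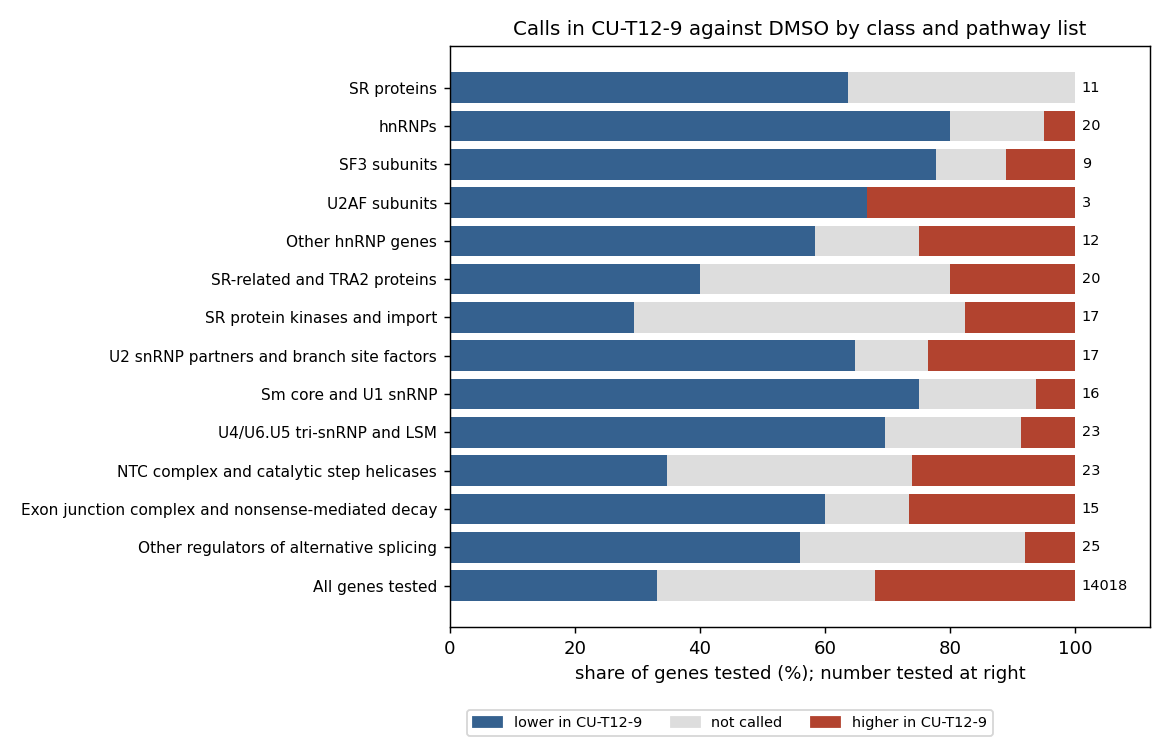
Share of tested genes (%) called lower, not called and called higher in CU-T12-9 in the 4 classes, 9 further lists of splicing genes and all genes tested, with the number tested at the right. Lower calls take 80% of the 20 hnRNP genes and 77.8% of the 9 SF3 genes, against 33.2% of all genes.

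The CU-T12-9 libraries differed from each other more than the DMSO libraries did. Over the 43 genes the log2 difference between the libraries of a group had an SD of 0.146 in CU-T12-9 and 0.067 in DMSO, and over all genes tested 0.299 in CU-T12-9 and 0.240 in DMSO. U2AF1L4, HNRNPH1, SRSF5 and SRSF6 were higher in the first CU-T12-9 library than in the second by 0.49, 0.35, 0.32 and 0.27 on the log2 scale, and HNRNPA0 was lower by 0.30. The first DMSO library was higher than the second by 0.33 for U2AF1L4 and by 0.04, 0.01, 0.06 and 0.01 for HNRNPH1, SRSF5, SRSF6 and HNRNPA0. The part of this gap in the results of these 5 genes was not tested beyond leaving out each library.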

How the data were processed

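Raw counts were used as the authors deposited them, in 1 table with a row for each gene symbol and a column for each library. Per the submitters' processing notes, FastQC 0.11.7, TopHat2 and featureCounts 1.5.2 were used with GRCh37. Annotation, strand setting and treatment of reads that map to several places were not given there or in the labels, so near-identical and overlapping genes are uncertain. The table holds no coordinates.

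Counts were analysed in R 4.3.3 with edgeR 4.0.16 (filterByExpr, TMM, quasi-likelihood F-test with group as the only term, and glmTreat for folds of 1.5 and 1.2), fitted on all 14018 genes that passed the filter, all 43 splicing factor genes among them. Standard errors were derived from the log2 fold change and its F statistic. Intervals of counting error were not needed, since every member had at least 89 reads in a library. Alternatives were RLE, upper quartile and library-total scaling, no filter, a filter of 1 CPM in 2 libraries, DESeq2 1.42.0, limma-voom (limma 3.58.1), a replicate block and leaving out each library, 12 in all. Exon lengths are from GENCODE 29 and promoters from RefSeq, both GRCh38 and matched by symbol or synonym, for 43 genes and 40 genes. The genes and lists were chosen with earlier results of these data known. From each further list the largest called rise and fall with a mean of at least 5 CPM are named, plus 11 genes whatever their values (HNRNPA2B1, PTBP1, PTBP2, TRA2B, SRPK1, CLK1, CLK4, SF1, PHF5A, ZRSR2 and RBM3). The SRSF10/SRSF12 ratio was not formed, since SRSF12 had 1 read. Some markers of other cell types are not reported here.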

Additional observations from a re-analysis of the deposited data

How the results depend on the processing

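Of the 32 genes called lower, 28 were called lower in each of the 12 alternatives, the exceptions being HNRNPA1, HNRNPLL, SF3B4 and SF3B2. None of the 3 rises held in all 12. Leaving out a library gave 0 to 5 members higher and 28 to 33 lower, and the 8 other alternatives 3 to 4 and 30 to 33. The falls past a fold of 1.5 numbered 4 to 9 without a library and 25 at a fold of 1.2, and the rises past it 0 to 1 without a library and 1 at a fold of 1.2. Fold changes turned sign in uncalled genes. Left out in turn, the libraries gave log2 fold changes of -0.143 to 0.0065 for SRSF8, -0.0106 to 0.280 for SRSF5, -0.0253 to 0.248 for CLK1 and -0.0720 to 0.106 for HNRNPA1L2, which stood at -0.0129 with library totals and -0.00942 with no filter. For kinases and importins 5 were higher with upper quartile scaling, 3 lower with DESeq2, and 2 to 6 higher and 3 to 6 lower without a library; for the Sm and U1 list 0 were higher with library totals, with no filter, with DESeq2 and with the replicate block, and 0 to 2 without a library. Without a library, SR-related genes higher ran from 2 to 6 and tri-snRNP genes higher from 1 to 3. The hnRNP share of member reads, 0.07 percentage points higher in CU-T12-9, ran from -0.219 to 0.355 without a library. No scaling moved the median of all genes by 0.1 or more. Deviations of same-numbered libraries correlated at 0.0082 over all genes and 0.50 over the 43. The 43 include U2AF1L4, which had few reads and the largest gaps of the 43, both in the same direction (0.49 in CU-T12-9 and 0.33 in DMSO). The correlation without U2AF1L4 was not computed, and whether the replicate numbers pair the libraries is not settled. With the replicate block 3 members were higher and 32 lower, SRSF11 gaining a call (adjusted p = 0.0304) and HNRNPLL losing one (0.0589). Depth limits HNRNPA1L2 and U2AF1L4 most, with 89 to 181 reads a library.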

Other observations

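Among 205 splicing genes (the 43 and those listed, at 5 CPM or more on average), 22 differed by 0.25 or more on the log2 scale between the CU-T12-9 libraries, and 18 of these were higher in the first. The 22 include all 4 CLK kinase genes. The same counts over all genes tested were not made. The SD of this log2 difference, 0.299 over all genes tested, includes genes under 5 CPM and gives no direction, so it is not a like background. For want of one, the counts are not read as particular to splicing genes. CLK2 had 45.6 and 33.8 CPM in the CU-T12-9 libraries and 48.1 and 47.1 CPM in the DMSO libraries, and CLK3 58.0 and 46.6 CPM in CU-T12-9 and 52.4 and 49.9 CPM in DMSO. SNRNP70, the U1-specific protein gene, had 332 and 266 CPM in CU-T12-9 and 324 and 317 CPM in DMSO. SMG1, the kinase of nonsense-mediated decay, had 215 and 162 CPM in CU-T12-9 and 154 and 155 CPM in DMSO. The antisense transcript HNRNPU-AS1 had 3183 and 2224 reads in CU-T12-9 and 3225 and 2879 reads in DMSO. These genes were picked after their values were seen, and what the gap between the libraries reflects was not tested.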
